A study of Mus musculus with 9 samples.

Results

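The genes described here are 33 mouse genes that type I interferon is known to switch on, taken as a fixed list of symbols and matched to the Ensembl identifiers of the deposited count tables. All 33 were matched, of 51912 genes in the tables, and all 33 had a mean of at least 1 CPM (counts scaled to library size), the level used here to call a gene measured. The study injected rAAV5-DIO-mCherry, an adeno-associated virus vector of serotype 5 whose mCherry (a red fluorescent protein) is expressed only in cells with Cre recombinase, into male C57BL/6 mice carrying CamkⅡα-cre. The Camk2a promoter drives Cre mainly in excitatory neurons of the forebrain. Doses of 2.88e+08, 2.88e+09 and 2.88e+10 vector genomes were used, with the lower dose as the default control, so every animal received vector and no uninjected animal was included. At 3 weeks after injection the hippocampus was sliced and dissociated, dead cells were excluded with DAPI, and fluorescent cells were sorted as pyramidal neurons and sequenced. The sources used here do not give the age of the mice or the number of animals behind each library.

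The series text names 3 groups of 3 biological replicates, but the labels of the 9 libraries, S1001 to S1009, carry no dose, so 0 of 9 libraries could be assigned to a group. The deposited column headers carry the letter H for S1001 to S1003, M for S1004 to S1006 and L for S1007 to S1009. The labels do not explain these letters, and they are used below only as names of 3 sets of libraries, never as doses. For this reason no test between doses was made, and all comparisons below describe these 9 libraries by their values, ranges and order. A gene was said to follow the common order when every H library was above every M library and every M library was above every L library.

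Type I interferons are secreted proteins that bind the receptor formed by IFNAR1 and IFNAR2. The kinases TYK2 and JAK1 then activate the transcription factor complex ISGF3, which holds STAT2 and IRF9, and ISGF3 binds the interferon-stimulated response element in the promoters of its target genes. The products of these genes detect foreign nucleic acid, block steps of viral replication, or amplify and restrain the response itself. In the brain, microglia and border macrophages respond strongly to interferon, and neurons can respond too.

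The library totals ran from 12136830 to 19151596 counts. In a library in which a gene has no count, the limit that 3 counts set lies between 0.158 and 0.246 CPM over the 9 libraries. The intervals and limits given here cover counting error only. The H libraries differed from each other least, with a chi-square per degree of freedom of 2.67 to 5.14 over genes, against 24.3 to 33.6 among the M and 27.2 to 38.9 among the L libraries. Markers of pyramidal neurons (Slc17a7, Camk2a, Nrgn, Neurod6, Neurod2, Gria2 and Grin2b) were present in every library, summing to 5573 to 5879 CPM in the H, 3608 to 3794 in the M and 6242 to 8373 in the L libraries. Markers of other cells were present too. The 15 microglial markers, all of them detected in every library, summed to 13733 to 15253 CPM in the H, 4405 to 5728 in the M and 25.4 to 128 in the L libraries. These are bulk samples, in which fewer cells of a type and less RNA per cell cannot be told apart.

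RefSeq promoter sequences on the build mm10, from 250 bases before to 50 bases after a gene start, were held for 22 of the 33 genes. They were searched for the element through which genes of this kind are known to be controlled. The interferon-stimulated response element was searched on both strands as GAAA followed by any 2 bases and a second GAAA, which reads on the other strand as TTTC, any 2 bases and TTTC. It was found in 12 of the 22 genes (54.5%), namely Bst2, Ddx58, Eif2ak2, Ifih1, Ifit1, Ifit3, Ifitm3, Isg15, Oas1a, Rsad2, Stat2 and Trim30a, and in 1079 of 27025 genes of the whole promoter table (3.99%). The gamma-activated site, TTCNNNGAA, a palindrome, was found in 6 of the 22 (27.3%) and in 9.55% of all genes in the table. A match describes these letters only. Promoters of Dhx58, Ifi204, Ifi27l2a, Mx1, Mx2, Oas2, Parp14, Parp9, Rtp4, Usp18 and Zbp1 were not in the table.

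The 250 bases before the start of 4 genes, chosen after their values were seen as ones that differ strongly between libraries, are printed 5′ to 3′ on the gene's own strand, with every match to the response element in capitals. Overlapping matches merge into 1 run of capitals.
Ifit1 (chr19:34640639-34640888, + strand): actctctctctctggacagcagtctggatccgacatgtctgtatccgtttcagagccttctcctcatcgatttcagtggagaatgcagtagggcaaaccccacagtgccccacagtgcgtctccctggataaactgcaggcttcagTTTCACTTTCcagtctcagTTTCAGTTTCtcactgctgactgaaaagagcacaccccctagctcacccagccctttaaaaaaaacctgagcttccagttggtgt
Isg15 (chr4:156200819-156201068, - strand): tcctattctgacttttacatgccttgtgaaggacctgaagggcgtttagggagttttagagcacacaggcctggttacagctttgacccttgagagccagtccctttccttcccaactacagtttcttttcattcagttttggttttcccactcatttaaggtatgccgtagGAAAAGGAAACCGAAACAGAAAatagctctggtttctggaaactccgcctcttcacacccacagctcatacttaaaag
Rsad2 (chr12:26456453-26456702, - strand): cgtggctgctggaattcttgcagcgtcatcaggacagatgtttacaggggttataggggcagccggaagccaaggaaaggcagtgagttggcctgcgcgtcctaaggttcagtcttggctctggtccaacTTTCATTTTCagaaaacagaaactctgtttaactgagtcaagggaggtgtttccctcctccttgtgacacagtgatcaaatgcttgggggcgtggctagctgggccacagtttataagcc
Bst2 (chr8:71537473-71537722, - strand): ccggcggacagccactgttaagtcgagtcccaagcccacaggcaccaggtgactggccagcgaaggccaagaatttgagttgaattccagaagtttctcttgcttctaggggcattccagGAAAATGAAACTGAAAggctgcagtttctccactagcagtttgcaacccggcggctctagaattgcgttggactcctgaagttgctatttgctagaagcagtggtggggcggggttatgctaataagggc
The first match began 104 bases before the start of Ifit1, 78 before that of Isg15, 120 before that of Rsad2 and 130 before that of Bst2. Isg15 held 3 overlapping matches, and Bst2 and Ifit1 held 2 each.

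In other genes the match lay elsewhere in the window. The 30 bases around it are given for 7 of them, to show the spacing of the GAAA repeats and where the match lies.
Ifit3 (chr19:34583363-34583392, + strand): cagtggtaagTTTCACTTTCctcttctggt
Oas1a (chr5:120907526-120907555, - strand): cccttctcggGAAATGGAAACTGAAAatct
Stat2 (chr10:128270266-128270295, + strand): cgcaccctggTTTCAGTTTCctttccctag
Ifitm3 (chr7:141010723-141010752, - strand): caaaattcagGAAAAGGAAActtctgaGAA
Ddx58 (chr4:40239804-40239833, - strand): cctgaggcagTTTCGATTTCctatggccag
Ifih1 (chr2:62646206-62646235, - strand): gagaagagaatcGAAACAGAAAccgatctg
Eif2ak2 (chr17:78882535-78882564, - strand): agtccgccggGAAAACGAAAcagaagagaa
The match began 156 bases before the start in Ifit3, 20 before it in Oas1a and 222 before it in Stat2. In Ifitm3, Ddx58, Ifih1 and Eif2ak2 it lay after the start, beginning at bases 3, 3, 33 and 19.

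Nearly every interferon-stimulated gene was highest in the H, lower in the M and lowest in the L libraries. All 33 genes had a spread of at least 2-fold on the log2(CPM + 1) scale, taken from the library second from the top to that second from the bottom, against 26.4% of the 14787 measured genes. Their median spread was 4.08 on that scale, from 1.53 for Stat2 to 6.59 for Ifit1, and the median over all measured genes was 0.66. In 28 of 33 genes the common order held, against 5.93% of measured genes, and in 30 of 33 the H libraries were the 3 highest, against 12.7%. No gene of the list had its 3 highest values in the M libraries (4.72% of measured genes) or in the L libraries (10.4%). The genes outside the common order were Stat2, Oasl2, Oas2, Ifi27l2a and Ifitm3.

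**Figure D1:**
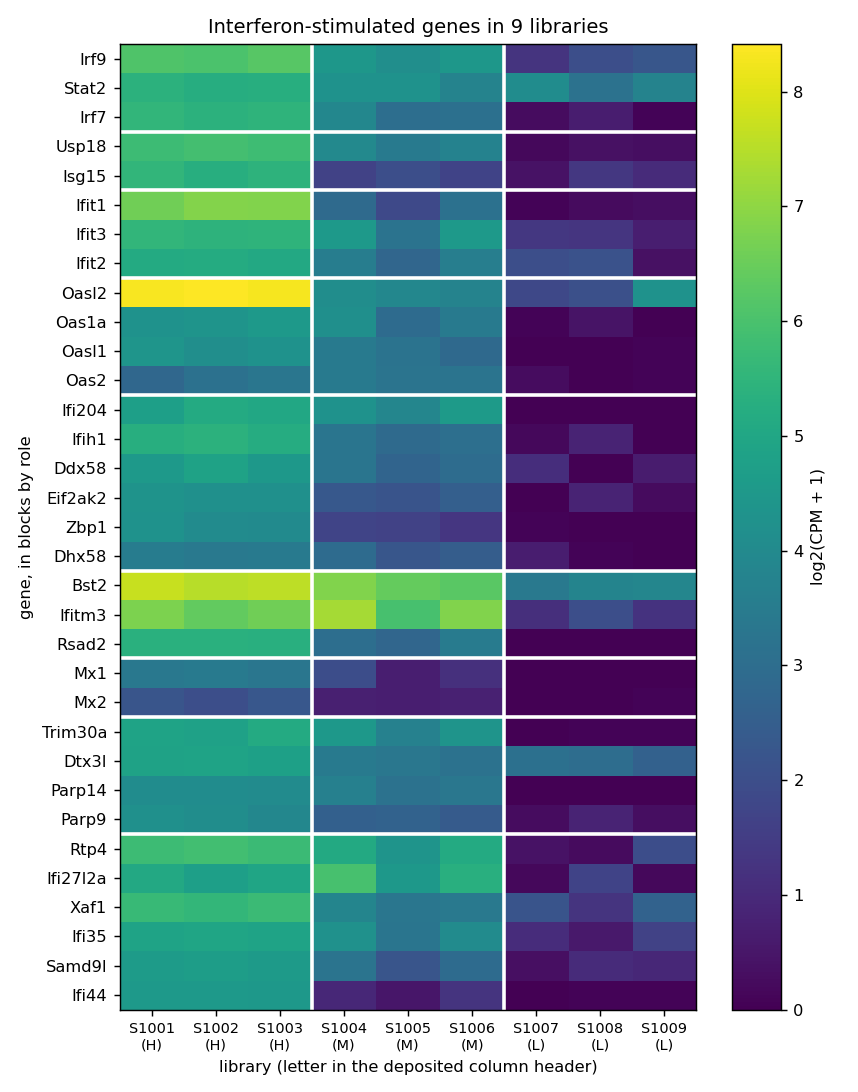
Heat map of log2(CPM + 1) of the 33 interferon-stimulated genes (rows, in blocks by role) in the 9 libraries (columns, with the letter of the deposited column header). Rows are brightest in the H libraries for 30 of 33 genes, Ifitm3 and Ifi27l2a are brightest in S1004, and most rows are darkest in the L libraries.

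The summed level of the 33 genes was 1604, 1577, 1575, 674, 395, 532, 51.5, 53.1 and 70.3 CPM in S1001 to S1009. The H libraries lay close together and above the M libraries, which lay above the L libraries, with no overlap between sets. The H libraries also varied least gene by gene. The highest H library was a median of 1.13 times the lowest over the 33 genes, against 1.17 times over all measured genes, while the same ratio within the M libraries had a median of 1.60 against 1.41. Within the M libraries S1004 was the highest in 21 of 33 genes, against 34.1% of measured genes, and S1005 had the lowest summed level of the 3.

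Stat2, Irf9 and Irf7 encode the transcription factors through which the response starts and amplifies. Irf9 (ENSMUSG00000002325, chromosome 14, 55603571 to 55610030), the DNA-binding subunit of ISGF3, measured 67.3, 65.1 and 73.7 CPM in the H, 20.8, 17.0 and 21.01 in the M and 1.41, 3.11 and 3.76 in the L libraries. The 3 sets did not overlap, and the lowest H library was 3.10 times the highest M library. Irf7, the factor that drives interferon alpha genes once induced, measured 45.2, 41.6 and 43.1 CPM in the H, 14.1, 7.24 and 7.56 in the M and 0.202, 0.609 and 0.0616 in the L libraries. S1004 stood above the other M libraries, and the L libraries held 3, 10 and 1 counts of it. Stat2 (ENSMUSG00000040033, chromosome 10, 128270559 to 128292849), a subunit of ISGF3, measured 41.1, 36.6 and 38.0 CPM in the H, 18.6, 18.4 and 12.6 in the M and 16.1, 7.92 and 12.4 in the L libraries. The H libraries were the 3 highest, but the M and L libraries overlapped, since S1007 exceeded S1006. Stat2 had the smallest spread of the list.

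Isg15 encodes a ubiquitin-like protein that is attached to other proteins, and Usp18 encodes the protease that removes it and also holds back signalling at the receptor. Isg15 (ENSMUSG00000035692, chromosome 4, 156199424 to 156200818) measured 45.9, 37.6 and 42.9 CPM in the H, 2.16, 3.03 and 2.25 in the M and 0.336, 1.58 and 1.05 in the L libraries. The lowest H library was 12.4 times the highest M library, whereas the lowest M library was 1.36 times the highest L library. Usp18 showed the other shape. It measured 54.1, 59.2 and 54.6 CPM in the H, 14.6, 10.00 and 12.1 in the M and 0.135, 0.305 and 0.247 in the L libraries. The lowest H library was 3.71 times the highest M, and the lowest M library was 32.8 times the highest L. The L values rest on 2, 5 and 4 counts, so the size of the ratio of 32.8 is poorly resolved. Isg15 and Usp18 therefore differed in which of the 2 steps was the larger one. The other enzymes of ISG15 conjugation, Uba7 (the activating enzyme), Ube2l6 (the conjugating enzyme) and Herc6 (the main ligase in the mouse), all followed the common order. Uba7 measured 24.3 to 29.6 CPM in the H, 12.6 to 18.0 in the M and 0.853 to 2.53 in the L libraries, Ube2l6 measured 47.2 to 52.1, 18.2 to 24.2 and 2.71 to 8.41, and Herc6 measured 12.7 to 15.8, 2.96 to 8.29 and 0.548 to 1.08.

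The Ifit genes encode proteins that bind viral RNA and block its translation, and the 3 studied lie on chromosome 19. Ifit1 (ENSMUSG00000034459, chromosome 19, 34640871 to 34650009), whose upstream sequence is printed above, had the widest spread of the list. It measured 94.7, 116 and 113 CPM in the H, 6.53, 2.62 and 7.78 in the M and 0.0673, 0.183 and 0.247 in the L libraries. The lowest H library was 12.2 times the highest M library, and the L values rest on 1, 3 and 4 counts. Ifit3 measured 46.0, 42.6 and 43.8 CPM in the H, 21.7, 8.14 and 22.2 in the M and 1.55, 1.46 and 0.616 in the L libraries, a step of 1.92 between the lowest H and the highest M library. S1005 was low among the M libraries for all 3 Ifit genes. Ifit2 measured 34.3, 34.9 and 32.5 CPM in the H, 10.9, 5.93 and 11.2 in the M and 3.03, 3.35 and 0.308 in the L libraries. Its L libraries did not resemble each other, since S1007 and S1008 held 45 and 55 counts (exact Poisson 95% intervals of 32.8 to 60.2 and 41.4 to 71.6) and S1009 held 5 (1.62 to 11.7). Ifit3 has a near-identical copy, Ifit3b, at 10.2 to 12.5 CPM in the H and 3.72 to 7.58 in the M libraries, and the sources used here do not say how reads that match both were counted.

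The OAS family makes or resembles the enzymes that sense double-stranded RNA and activate RNase L. The 4 members lie on chromosome 5 and differed widely from each other. Oasl2 (ENSMUSG00000029561, chromosome 5, 114896936 to 114912234), an OAS-like protein, measured 325, 341 and 316 CPM in the H, 16.5, 13.8 and 12.6 in the M and 2.56, 3.17 and 18.7 in the L libraries. The lowest H library was 19.1 times the highest M library, the largest such step among the 33 genes. S1009 exceeded all 3 M libraries, which took Oasl2 out of the common order. That library held 304 counts (271 to 340), against 38 (26.9 to 52.2) in S1007 and 52 (38.8 to 68.2) in S1008.

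Oas2 (ENSMUSG00000032690, chromosome 5, 120730333 to 120749853) showed no separation of H from M. It measured 5.98, 7.91 and 8.77 CPM in the H, 9.84, 8.41 and 8.43 in the M and 0.202, 0 and 0.0616 in the L libraries, and the H and M ranges overlapped with S1004 the highest. Oas1a, a catalytically active OAS1 of the mouse, measured 18.4, 19.4 and 22.1 CPM in the H and 17.3, 6.76 and 9.81 in the M libraries, with at most 6 counts in any L library. Its lowest H and highest M library differed by a factor of only 1.07, although the H and M medians were 19.4 and 9.81 CPM. Oasl1, a regulator that holds back Irf7 translation, measured 20.0, 16.9 and 18.8 CPM in the H and 10.1, 8.14 and 6.32 in the M libraries, and 1 count in all over the L libraries. Oas1a has the near copy Oas1g, which measured 3.89 to 5.25 CPM in the H and 2.54 to 7.00 in the M libraries and was at 0 in the L libraries.

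Among the sensors of foreign nucleic acid, all 6 followed the common order. Ddx58 (RIG-I) and Ifih1 (MDA5) detect viral RNA and signal to new interferon production, and Dhx58 (LGP2) modulates them. Ifih1 measured 37.8, 41.8 and 36.4 CPM in the H, 8.63, 6.55 and 7.34 in the M and 0.135, 0.792 and 0 in the L libraries. Ddx58 measured 22.1, 28.1 and 21.3 in the H, 8.74, 5.52 and 6.91 in the M and 1.144, 0 and 0.555 in the L libraries. The lowest H library was thus 4.22 times the highest M library for Ifih1 and 2.43 times for Ddx58. Dhx58 was lower and flatter, with 9.68 to 10.7 CPM in the H, 3.72 to 6.74 in the M and 0 to 0.606 in the L libraries. Eif2ak2 (PKR), the kinase that stops translation when it binds double-stranded RNA, had 17.5 to 18.9 CPM in the H, 3.59 to 4.80 in the M and 0 to 0.792 in the L libraries.

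Zbp1 (ENSMUSG00000027514, chromosome 2, 173206612 to 173218923), which detects Z-form nucleic acid and can trigger necroptosis, measured 18.8, 15.7 and 15.5 CPM in the H and 2.32, 2.14 and 1.53 in the M libraries. The lowest H library was 6.68 times the highest M, the fifth largest such step of the list, and a single count was found in the L libraries together. Ifi204, a member of the interferon-inducible p200 family that binds DNA, had the opposite shape. It measured 25.9, 34.6 and 32.4 CPM in the H and 18.7, 13.4 and 22.8 in the M libraries and 0 counts in all 3 L libraries. The H and M sets differed by a factor of 1.138 between their nearest libraries, and the lowest M library was at least 66.6-fold higher than the limit set by 3 counts in an L library. The p200 genes are near copies of each other, so the split of reads among them is uncertain.

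Bst2 (tetherin), Ifitm3 and Rsad2 (viperin) act at membranes, where they hold budding virus, block fusion and disturb assembly. Bst2 (ENSMUSG00000046718, chromosome 8, 71534255 to 71537456) measured 211, 181 and 189 CPM in the H, 111, 85.3 and 76.5 in the M and 9.49, 12.97 and 13.6 in the L libraries. It was the member with the highest level per gene length in the H libraries, with a median deposited FPKM (counts per gene length and library total) of 209.65, and again in the L libraries with 14.38. Ifitm3 (ENSMUSG00000025492, chromosome 7, 141009586 to 141010770) measured 108, 82.6 and 96.1 CPM in the H, 155, 61.2 and 113 in the M and 1.21, 3.05 and 1.36 in the L libraries. S1004 and S1006 exceeded every H library and S1005 lay below every H library, so H and M were not separated, while the lowest M library was 20.1 times the highest L library. Rsad2 measured 39.9, 39.4 and 38.6 CPM in the H and 7.26, 5.93 and 10.4 in the M libraries and 0 in all 3 L libraries. The lowest M library was at least 29.4-fold higher than the 3-count limit.

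Mx1 and Mx2 belong to the dynamin-like GTPases, a family with members that trap viral nucleocapsids. RNA levels do not show whether these mice make working protein from them. Mx1 measured 9.42, 9.83 and 8.84 CPM in the H, 3.0, 0.621 and 1.24 in the M and 0 in all 3 L libraries. Mx2, the lowest of the list per gene length in the H libraries, measured 3.61, 3.07 and 3.89 CPM in the H and 0.684, 0.621 and 0.727 in the M libraries with 1 count in the L libraries. In the M libraries these levels rest on 9 to 57 counts for Mx1 and 9 to 13 for Mx2, so differences within the M set are poorly resolved for Mx2.

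Parp9 and Dtx3l encode an ADP-ribosyltransferase and a ubiquitin ligase that act as a pair, and the genes share a start region on chromosome 16. They lie on opposite strands with their starts 681 bases apart and overlap by 682 bases. Parp9 measured 17.9, 16.3 and 13.9 CPM in the H, 4.95, 5.24 and 4.36 in the M and 0.202, 0.792 and 0.247 in the L libraries. Dtx3l measured 27.9, 28.7 and 26.7 in the H, 9.74, 9.17 and 7.92 in the M and 7.603, 7.13 and 5.18 in the L libraries. Both followed the common order, but the lowest M library was 5.51 times the highest L library for Parp9 and 1.04 times for Dtx3l, which was nearly as high in the L as in the M libraries. Whether the counting used strand is not stated in the sources, so reads from the overlap cannot be assigned with certainty. Parp14, a further ADP-ribosyltransferase of the same chromosome, measured 15.9, 16.2 and 15.9 CPM in the H and 11.7, 8.00 and 9.16 in the M libraries and 0 in all 3 L libraries. Trim30a, a ubiquitin ligase that restrains Toll-like receptor signalling, measured 28.4, 27.0 and 34.2 CPM in the H and 21.5, 11.9 and 19.6 in the M libraries, with 2 counts in all in the L libraries and a near copy, Trim30d, at 7.76 to 9.99 and 5.24 to 7.32 CPM in the same 2 sets.

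The remaining 6 genes have less well defined roles. Ifi44 (ENSMUSG00000028037, chromosome 3, 151730922 to 151749960), a cytosolic protein with antiviral activity, measured 21.8, 22.0 and 21.6 CPM in the H and 0.895, 0.414 and 1.38 in the M libraries, with 0, 1 and 1 counts in the L libraries. The lowest H library was 15.6 times the highest M library. Ifi27l2a (ENSMUSG00000079017, chromosome 12, 103442167 to 103443680), a small membrane protein, did not separate H from M. It measured 33.1, 26.2 and 29.6 CPM in the H and 62.1, 21.7 and 39.0 in the M libraries, with S1004 and S1006 above every H library and S1005 below them, and 2, 37 and 2 counts in the L libraries. Xaf1, a pro-apoptotic gene, measured 50.0, 46.9 and 52.5 CPM in the H, 13.1, 8.89 and 9.52 in the M and 3.57, 1.40 and 5.30 in the L libraries. Rtp4, a chaperone of membrane receptors, measured 53.1, 57.9 and 52.5 in the H, 33.4, 19.4 and 34.5 in the M and 0.336, 0.183 and 2.96 in the L libraries. Both followed the common order, with S1009 the highest of the L libraries in each. Ifi35 measured 28.7 to 29.9 CPM in the H, 8.55 to 18.2 in the M and 0.487 to 2.16 in the L libraries, and Samd9l, a translation inhibitor, measured 23.0 to 24.8, 3.65 to 8.47 and 0.269 to 1.04.

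**Figure D2:**
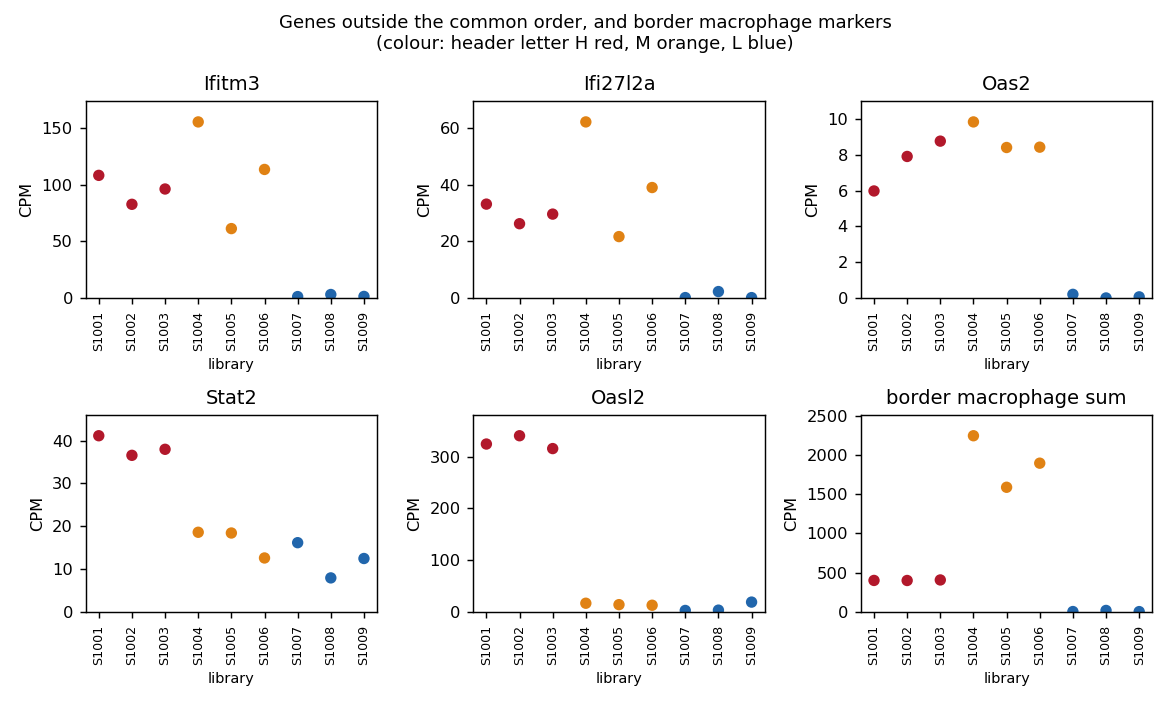
CPM per library (9 points per panel, coloured by header letter) of the 5 genes outside the common order and of the sum of 7 border macrophage markers. Ifitm3 and Ifi27l2a are highest in S1004, Oas2 does not separate H from M, Stat2 overlaps between M and L, Oasl2 in S1009 lies above the M libraries, and the border macrophage sum is highest in the 3 M libraries.

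Genes of the list thus differed in where the larger step lay. Between H and M, the lowest H library was at least 10 times the highest M library for Ifit1, Isg15, Oasl2 and Ifi44, and 5 to 10 times for Zbp1. It was 2 to 5 times for 14 genes, 1 to 2 times for 11, and below the highest M library for Oas2 (0.608), Ifi27l2a (0.422) and Ifitm3 (0.532). On the log2(CPM + 1) scale 19 of 33 genes kept at least a 2-fold gap between these nearest libraries, against 3.83% of measured genes. Between M and L the pattern was different. The lowest M library exceeded the highest L library in 31 of 33 genes (17.0% of measured genes), all but Stat2 and Oasl2, and by at least 2-fold on the log2(CPM + 1) scale in 24 (5.98%). The 9 others were Ifit2, Isg15, Stat2, Oasl2, Ifi44, Mx1, Mx2, Xaf1 and Dtx3l. Ifi44, Mx1 and Mx2 could not reach 2-fold on that scale even against 0. Their lowest M library lay below 1 CPM, at 0.414, 0.621 and 0.621. Ifit1 had a large step on both sides, with 10.6 times between the lowest M and the highest L library.

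**Figure D3:**
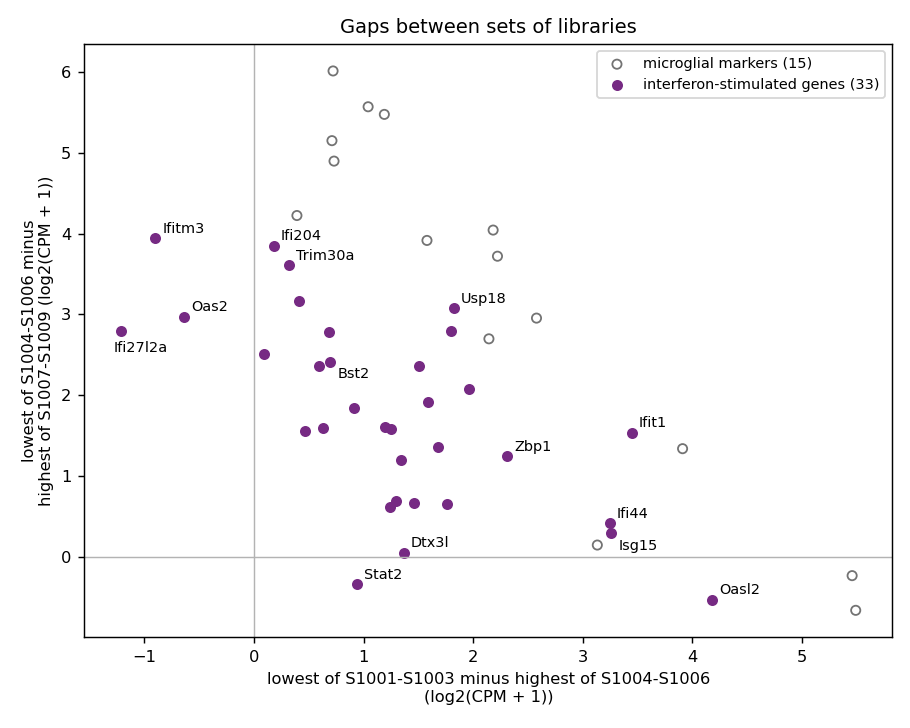
Gap between the H and M libraries (x axis, lowest H minus highest M) against the gap between M and L (y axis, lowest M minus highest L), both on log2(CPM + 1), for the 33 genes (filled) and 15 microglial markers (open). Oasl2, Ifit1, Ifi44 and Isg15 lie to the right, Ifitm3, Ifi204 and Trim30a lie at the top, and Ifitm3, Ifi27l2a and Oas2 lie left of 0.

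Genes of 1 family did not share a place in that plot. Within the OAS family the ratio of the lowest H to the highest M library was 19.1 for Oasl2, 1.67 for Oasl1, 1.07 for Oas1a and 0.608 for Oas2. Among the Ifit genes it was 12.2 for Ifit1, 2.90 for Ifit2 and 1.92 for Ifit3. The response element was found for genes with a large step between H and M (Ifit1, Isg15) and for genes with a small one or none (Bst2, Oas1a, Trim30a, Ifitm3). It was not found in the promoters held for Oasl2 and Ifi44, nor in those for Dtx3l, Ifi35, Ifit2, Irf7, Irf9, Oasl1, Samd9l and Xaf1. Only the exact spacing given above was searched, so GAAA repeats with another spacing would be missed.

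Per gene length, the order of abundance changed between sets. The highest medians of the deposited FPKM in the H libraries were 209.65 for Bst2, 141.8 for Ifitm3, 63.94 for Ifi27l2a, 56.72 for Isg15, 51.2 for Oasl2 and 42.46 for Ifit1. In the M libraries Ifitm3 led with 171.29, ahead of Bst2 with 98.74 and Ifi27l2a with 86.24. The medians of the leading genes in the L libraries were 14.38 for Bst2, 2.01 for Stat2, 1.92 for Ifitm3, 1.33 for Isg15 and 1.25 for Dtx3l. Bst2 and Ifitm3 were thus among the 3 leading genes in all 3 sets.

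The L libraries held little RNA of the list. Of the 33 genes, 9 were at 0 in S1007, 9 in S1008 and 8 in S1009, against 3.34, 2.48 and 4.59% of all measured genes. None of the 33 was at 0 in an H or M library, where 0.872% of measured genes had at least 1 value of 0. Rsad2, Mx1, Parp14 and Ifi204 were at 0 in all 3 L libraries, as were 1.48% of measured genes. The highest L library held 1 to 3 counts for Oasl1, Oas2, Ifi44, Mx2, Zbp1 and Trim30a, and for 1.51% of measured genes. A level of at least 1 CPM in all 3 L libraries was reached by 7 of the 33 genes (Irf9, Stat2, Oasl2, Bst2, Xaf1, Dtx3l and Ifitm3), against 83.1% of measured genes. In none of the L libraries was it reached by 18 of the 33, against 6.51% of measured genes. Bst2, Stat2 and Dtx3l, the genes of the list with the highest median CPM in the L libraries, together made up 64.5, 52.8 and 44.3% of its summed CPM in S1007, S1008 and S1009. In the other 6 libraries they made up 15.6 to 28.6%. A larger share in the L libraries is favoured by naming the genes highest there. In S1009 Oasl2, at 18.7 CPM, was higher than each of them.

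Single genes differed between the L libraries beyond counting error. S1009 was high in Oasl2, as given above, and in Rtp4, with 48 counts (35.4 to 63.6) against 5 and 3 in S1007 and S1008. S1008 was high in Ifi27l2a, with 37 counts (26.1 to 51.0) against 2 and 2. Ddx58 held 17, 0 and 9 counts and Ifih1 held 2, 13 and 0 in the same order. No L library was highest in all of these genes.

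Microglial markers mostly had the library order of the list. The microglial sum was 15253, 13733, 14436, 5728, 4405, 4485, 74.6, 128 and 25.4 CPM in S1001 to S1009, so that its lowest H library was 2.40 times its highest M library and its lowest M library 34.5 times its highest L. Of the 15 microglial markers, 15 were highest in the H libraries and 13 followed the common order, against 12.7 and 5.93% of measured genes. Those of highest CPM, the complement genes C1qa, C1qb and C1qc, made up 63.5 to 78.7% of that sum in the H and M libraries. The 33 interferon-stimulated genes per 100 CPM of microglial markers came to 10.5, 11.5, 10.9, 11.8, 8.97, 11.9, 69.1, 41.6 and 277. The H and M libraries overlapped in this ratio, and the L libraries, where the microglial sum was lowest, were higher. The overlap depended on the complement genes. Per 100 CPM of the other 12 markers the values were 31.0, 31.5, 31.0, 53.2, 36.6, 55.8, 101, 78.2 and 431, with every M library above every H library. The part of microglial RNA in the differences between libraries was not tested.

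**Figure D4:**
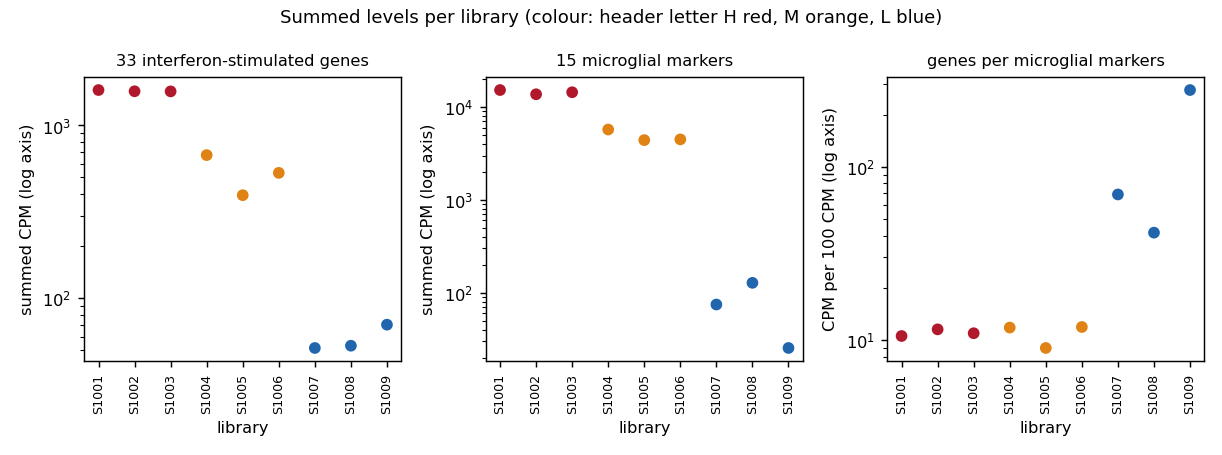
Summed CPM of the 33 interferon-stimulated genes (left), summed CPM of 15 microglial markers (middle) and the first per 100 CPM of the second (right) in each library, all on log axes, coloured by header letter. Both sums fall into 3 separate ranges, and their ratio lies between 8.97 and 11.9 in the H and M libraries and between 41.6 and 276.9 in the L libraries. The marker sum plotted includes C1qa, C1qb and C1qc, and the overlap of H and M in the ratio is not seen without them.

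Gene by gene the ratio to the microglial sum was not uniform. Relative to all 15 markers, 14 of the 33 genes were higher in every H than in every M library (Ifit1, Isg15, Irf7, Oasl2, Usp18, Rsad2, Ifi44, Mx1, Mx2, Ifih1, Eif2ak2, Xaf1, Zbp1 and Samd9l), against 2.69% of all measured genes. Higher in every M than in every H library were 12 of the 33, against 88.1% of measured genes. The marker sum that divides the values is lower in every M than in every H library. The counts depended on the markers. With C1qa, C1qb and C1qc left out of the sum, 5 genes were higher in every H library (Ifit1, Isg15, Oasl2, Ifi44 and Zbp1) and 16 in every M library, against 1.9 and 94.0% of measured genes. Bst2, Ifitm3, Ifi27l2a, Oas2, Stat2, Ifi204 and Trim30a were among the genes higher in the M libraries under both sums.

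Border macrophage markers had another order than the list. Mrc1, Cd163, Lyve1, F13a1, Pf4, Ms4a7 and Cbr2 were each highest in the 3 M libraries, 7 of 7, against 4.72% of measured genes. They summed to 399 to 406 CPM in the H, 1588 to 2245 in the M and 2.22 to 17.0 in the L libraries. Within the M libraries S1004 had the highest and S1005 the lowest sum. Ifitm3 and Ifi27l2a showed that order there, but it was not particular to them. The summed level of the list had it too (674, 395 and 532 CPM in S1004 to S1006), as did Irf7, Usp18 and Trim30a among others. The part of border macrophage RNA in the levels of these genes was not tested. Markers of monocytes and neutrophils summed to 53.1 to 58.7 CPM in the H libraries and at most 0.581 elsewhere. Lymphocyte markers summed to 1106 to 1188 CPM in the H libraries, mostly from the plasma cell gene Jchain, and to at most 1.31 elsewhere. Oligodendrocyte markers summed to 522 to 545, 77.4 to 135 and 28.1 to 53.7 CPM in the H, M and L libraries, and oligodendrocyte precursor markers to 72.2 to 74.8, 9.67 to 15.3 and 0.370 to 5.91. Their part was likewise not tested. Endothelial markers summed to at most 3.23 CPM and ependymal and choroid plexus markers to at most 0.79 CPM in any library. The 6 plasmacytoid dendritic cell markers summed to 887 to 905, 651 to 687 and 663 to 928 CPM in the H, M and L libraries. Most of that sum was Tcf4, a transcription factor that neurons also express, at 539 to 546, 532 to 579 and 649 to 914 CPM, highest in the L libraries. Cox6a2 measured 4.50 to 7.05, 0.758 to 3.27 and 0.493 to 5.85 CPM in the same sets, which overlapped. Of the other 4, Ccr9 and Klk1 were near 0 in all 9 libraries, Siglech is also a microglial marker and Bst2 belongs to the list itself. Mural, astrocyte and inhibitory neuron markers summed to 8.77 to 11.3, 130.1 to 135 and 212 to 243 CPM in the H, 22.3 to 39.0, 105 to 246 and 621 to 995 in the M and 5.18 to 14.2, 33.6 to 139.8 and 293 to 1315 in the L libraries.

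The interferons themselves were barely detected. Of 20 type I and type III interferon genes, 9 had at least 1 count in some library and none reached a mean of 1 CPM. Ifnb1, interferon beta, held 8, 14, 16, 0, 0, 1, 0, 0 and 0 counts in S1001 to S1009. It was present in all 3 H libraries, with intervals of 3.45 to 15.8, 7.65 to 23.5 and 9.15 to 26.0 counts, and in the other 6 libraries a single count was found. Ifna1, Ifna4, Ifna9, Ifna15, Ifnk, Ifnz, Ifnl2 and Ifnl3 held 1 to 3 counts each over all libraries. Ifng, the type II interferon, held 16, 18, 26, 0, 0, 0, 2, 0 and 0 counts, again mostly in the H libraries.

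The receptor and kinase genes had a median spread of 1.13 on the log2(CPM + 1) scale, where that of the list was 4.08. Of 7, 4 spanned 2-fold, 3 followed the common order and 5 were highest in the H libraries, against 26.4, 5.93 and 12.7% of measured genes. Ifnar1 had 38.4 to 45.4 CPM in the H, 28.3 to 30.5 in the M and 8.63 to 17.7 in the L libraries, and Ifnar2 had 74.0 to 79.7, 47.0 to 73.7 and 16.1 to 19.7. Ifngr1, of the receptor for type II interferon, had 97.7 to 102, 68.3 to 83.7 and 8.95 to 16.1 CPM in the same sets. Both type I receptor chains were thus present in the L libraries, where most of the list was near 0. Tyk2 was highest in the H libraries (10.8 to 13.9 CPM) and measured 5.23 to 9.38 in the M and 4.51 to 5.30 in the L libraries. Jak2 ran from 10.5 to 31.2 CPM, Jak1 from 185 to 264 and Ifngr2 from 107 to 179.6 over all 9 libraries, none of them in the common order.

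Of 5 further transcription factors, 3 spanned 2-fold and 4 followed the common order, against 26.4 and 5.93% of measured genes. Irf1 measured 114, 106 and 114 CPM in the H, 15.3, 19.9 and 9.38 in the M and 0.807, 3.90 and 1.29 in the L libraries. The 3 sets did not overlap for Irf1, and the lowest H library was 5.34 times the highest M. Irf5 and Irf8, which are expressed in myeloid cells, had 47.1 to 52.5 and 178 to 192 CPM in the H, 22.4 to 33.8 and 38.5 to 76.7 in the M and 0.122 to 1.28 and 0.308 to 2.15 in the L libraries. Irf2 followed the common order within less than 2-fold of spread, and Irf3, which is made without interferon and acts downstream of the sensors, stayed within 12.4 to 24.2 CPM with no separation of sets.

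Of 11 upstream sensors and adaptors, 10 were measured. Of these, 9 spanned 2-fold, 6 followed the common order and 8 were highest in the H libraries, against 26.4, 5.93 and 12.7% of measured genes. Tmem173 (STING) had 55.8 to 59.6 CPM in the H, 13.9 to 17.5 in the M and 0.123 to 1.71 in the L libraries. Cgas, the DNA sensor that activates STING, had 4.88 to 6.68, 1.03 to 4.00 and 0.269 to 2.13 CPM, with M and L overlapping. Tlr7, an endosomal sensor of single-stranded RNA, had 30.3 to 31.1, 19.4 to 20.3 and 0 to 0.740 CPM, and Tlr3, which binds double-stranded RNA, had 7.70 to 9.22, 1.03 to 1.58 and 0.0609 to 0.123. Tlr9, the sensor of unmethylated CpG DNA, lay below a mean of 1 CPM, at 0 to 1.80 CPM. Myd88, the adaptor of Tlr7 and Tlr9, had 23.8 to 29.2, 13.7 to 21.4 and 7.98 to 13.3 CPM, Aim2 had 9.00 to 11.1, 2.05 to 2.41 and 0.471 to 1.04, and Ikbke had 7.24 to 9.67, 0.436 to 1.32 and 0 to 0.0609. Mavs, the adaptor of Ddx58 and Ifih1, did not separate H (9.45 to 10.8 CPM) from M (6.25 to 10.00) and was at most 0.609 CPM in the L libraries. Ticam1 ran from 0.792 to 5.95 CPM, and the kinase Tbk1 stayed within 62.6 to 89.1 CPM.

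The genes that restrain the response mostly followed the list. Of 5, 4 spanned 2-fold and followed the common order, against 26.4 and 5.93% of measured genes, respectively. Socs1 had 2.30 to 2.97 CPM in the H, 1.02 to 1.63 in the M and 0.0616 to 0.792 in the L libraries, Socs3 had 67.4 to 74.8, 9.23 to 23.7 and 0.135 to 0.185, and Ptpn6, a phosphatase of blood and microglial cells, had 137 to 149, 45.5 to 66.2 and 0.0616 to 0.807. The fourth was Usp18, a member of the list. Ptpn11 stayed within 53.4 to 88.1 CPM.

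**Figure D5:**
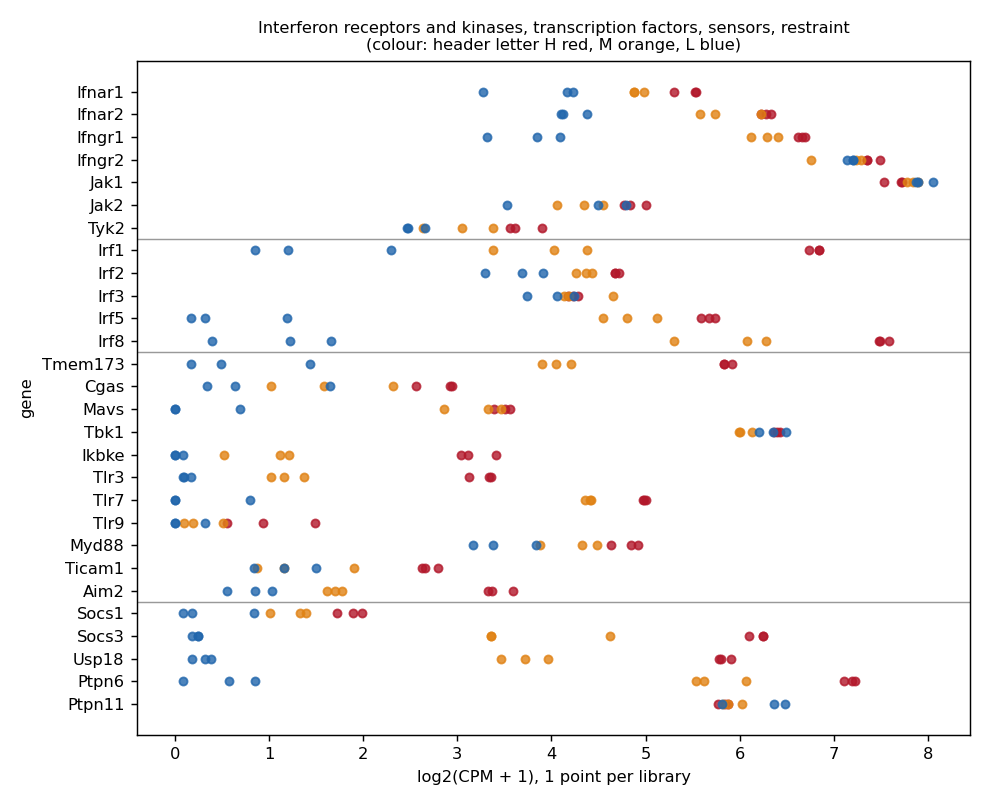
Log2(CPM + 1) of interferon receptors and kinases, transcription factors, sensors and adaptors, and restraint genes (rows in 4 blocks), 1 point per library coloured by header letter. The 3 colours separate in order for Irf1, Irf8, Tmem173 and Ptpn6, and lie within 1 unit of each other for Jak1, Ifngr2, Tbk1, Irf3 and Ptpn11.

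Of a wider set of 45 other interferon-stimulated genes, 39 were measured. Of these, 34 spanned 2-fold, 21 followed the common order, 26 were highest in the H libraries and 4 in the M libraries. The shares of all measured genes were 26.4, 5.93, 12.7 and 4.72% in the same sequence. Lgals3bp, a secreted glycoprotein, measured 678, 646 and 691 CPM in the H, 66.7, 57.4 and 35.8 in the M and 3.70, 16.2 and 11.8 in the L libraries. The immunoproteasome gene Psmb8 had 168 to 187 CPM in the H, 57.0 to 82.5 in the M and 0.471 to 2.50 in the L libraries, and Lgals9, a galectin, had 121 to 137, 43.6 to 57.2 and 2.83 to 4.93. Both followed the common order. Shisa5 and Ifi27 did not, at 114 to 178 and 129.7 to 237 CPM in the L libraries against 302 to 315 and 218 to 231 in the H.

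The genes highest in the M libraries were relatives of list members. Ifitm2, the neighbour of Ifitm3 with a similar sequence, had 32.0 to 38.3 CPM in the H, 93.3 to 144 in the M and 15.0 to 22.1 in the L libraries. Ifi207, Ifi203 and Mndal, which belong to the p200 family with Ifi204, had 19.8 to 22.0, 14.4 to 16.8 and 7.95 to 11.1 CPM in the H against 33.03 to 43.2, 18.6 to 23.3 and 15.1 to 22.0 in the M libraries. In the L libraries these 3 were at no more than 1.23 CPM. Ifit1bl1, an Ifit relative, had its highest values outside the H libraries as well, at 2.77 to 3.81 CPM in the H, 5.38 to 6.74 in the M and 3.88 to 9.08 in the L libraries.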

How the data were processed

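RNA of sorted hippocampal cells was sequenced in 9 libraries. The submitters' processing notes name the build mm10 and the tools HISAT2 (2.0.1), HTSeq (0.6.1), Trimmomatic (0.30) and bcl2fastq (2.17.1.14). The sources used here do not give their roles, the annotation or the strand setting. For every gene the tables hold, per the file headers, the raw read count of the library and its FPKM, the count per gene length and library total. Over 8495 genes, the deposited FPKM followed the counts to within 0.779%.

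GENCODE release M21 on mm10 supplied symbols and coordinates and named 51633 (99.46%) of the identifiers. CPM were computed with TMM scaling (edgeR 4.0.16, R 4.3.3) and compared as log2(CPM + 1). A gene counted as measured from a mean of 1 CPM upward. Spread is the second highest minus the second lowest library, with 2-fold as threshold. A fold on the log2(CPM + 1) scale understates that of low genes. No dose test was made. Promoters came from RefSeq on mm10 (GRCm38.p6). The calls of 2-fold spread and of library order were tried on simulated data in which known genes differed. The simulation gave all libraries the same variation, whereas the H libraries differed from each other less than the M or L libraries. It therefore cannot show how reliable the calls are in these data. Python 3.11.15 with pandas 2.3.3, numpy 2.4.6, scipy 1.17.1 and matplotlib 3.10.9 was used.

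All 33 list genes are named. Of the pathway lists, the receptors, kinases, factors, sensors and restraint genes and all detected interferons are named, except for an item that is not reported here and is left out of the counts and sums. Of the 45 other interferon-stimulated genes, the 5 of highest mean and the 5 of highest mean with their 3 highest libraries outside H are named. The list and these rules were chosen with earlier results of these data known. The results were recomputed with total-count scaling, size factors from DESeq2 1.42.0, totals that omit mitochondrial genes, no minimum or a minimum of 10 CPM, other pseudocounts, the full range, deposited FPKM and each library left out.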

Additional observations from a re-analysis of the deposited data

How the results depend on the processing

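The counts of genes at 2-fold spread, in the common order and with H highest were recomputed under alternative settings. So were the median spread and the 2 counts per microglial CPM. This gave 65 comparisons in all, each of a single value under a single setting. In 62 of them the value moved by less than 1.5-fold, judged for the median spread on the fold scale and not as a ratio of log2 values. Not all of the 65 could move the value, so this tally overstates how firm the results are. With no minimum CPM, for example, the same 33 genes were counted as before. The median spread of 4.08 was 4.81 with a pseudocount of 0.5 CPM and 2.47 with 5 CPM, since the pseudocount sets the distance of the near-zero L values. At 5 CPM, 32 genes spanned 2-fold. The count of genes higher in every H than in every M library per microglial CPM was 14 with all 15 markers and 5 without C1qa, C1qb and C1qc, an alternative chosen after seeing the data. Leaving out each library in turn gave a median spread of 3.89 to 4.08, with 33 genes at 2-fold each time. It gave 28 to 29 genes in the common order and 30 with H highest, but these counts could not fall. Leaving a library out only removes conditions on the order. Stat2 joined the common order without S1006 or without S1007, and Oasl2 joined it without S1009. With a minimum of 10 CPM, 23 genes were left to count, all at 2-fold, and 19 of them followed the common order. Counting error weighs most in the L libraries, where 14 to 18 of 33 genes had at most 3 counts, although these libraries were deeper than the H libraries. The share of all measured genes with at most 3 counts in these libraries was not computed. No paired analysis was possible because the labels put no library in a group.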
